A study of Mus musculus with 48 samples.

Results

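A-to-I editing in liver was compared with that in kidney of Adar1+/+ Ifih1-/- mice (WT). Their ADAR1 can edit, and they have no MDA5, the Ifih1 product that detects double-stranded RNA in the cytosol. The comparison used 6 of the 48 mmPCR-seq libraries of the study, 3 from liver and 3 from kidney, each from C57BL/6 male mice at 12 weeks of age. Libraries of the same tissues from Adar1E861A/E861A Ifih1-/- mice (E861A), in which ADAR1 cannot deaminate adenosine and MDA5 is also absent, are given beside them, with 3 per tissue. In mmPCR-seq, cDNA stretches around known editing sites are amplified with pooled primers and sequenced, and the editing level is the percentage of reads over a genomic A that carry G. All animals lacked MDA5 in every cell, so no group here is a fully wild-type mouse. A site entered the comparison if 2 or more WT replicates of each tissue read it over 100 times and if its level, over the pooled reads of a tissue, was above 1% in liver or kidney. Of 48715 positions in the files, 4728 were covered in both tissues and 718 entered. Of these, 80 lay outside the genes of the files' annotation, and 603 were read over 100 times in all 6 libraries.

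ADARs convert adenosine to inosine in double-stranded RNA, and inosine is read as guanosine by the ribosome and by reverse transcriptase. ADAR1 edits mostly long duplexes of inverted repeats in 3′ UTRs and introns, and ADAR2, the product of Adarb1, edits many of the short structured sites that change a codon. The recoding sites of Copa, Cog3 and Flna lie in housekeeping proteins of the secretory pathway and of the actin cytoskeleton, and the other well-known group, including Gria3, Gabra3 and Kcna1, lies in receptors and channels of neurons.

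The sequences on which the comparison turned are given first, as 21 bases of the transcript strand in mm9 with the edited A in capitals. The first 3 are recoding sites with steady replicates.
Copa, Ile to Val, chr1:174022469-174022489, plus strand: cgtttgggatAtttctggtga
Flna, Gln to Arg, chrX:71472191-71472211, minus strand: tctagtcttcAggtgaggcac
Cog3, Ile to Val, chr14:76119516-76119536, minus strand: cattaaggaaAtttccctgga
The next 5 are the sites in annotated genes among those of lowest p in each direction, described further on.
Rragd, chr4:33107382-33107402, plus strand: gcgtatctctAtgtagccctg
Slc35e2, chr4:154995214-154995234, plus strand: actacagaacAagttccagga
Rpa1, chr11:75114507-75114527, minus strand: aacagaaattAtgtcacaagt
Ecm2, chr13:49627516-49627536, plus strand: gggtctatatAgtgagatcca
uc012aji.1, chr17:6123076-6123096, plus strand: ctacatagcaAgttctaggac
All 718 sites had A on the annotated strand. The base before the site was G at 9.33% of the 718 sites and U at 36.8%, against 25.5% and 16.4% of the 4010 other covered positions. At the 112 sites with a mean above 10% in both tissues it was G at 4.46% and U at 57.1%. These shares describe the sites, which the level limit chose, and neighbouring sites share sequence.

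Editing of the Copa recoding site was 20.3 percentage points higher in liver than in kidney. Copa encodes the alpha subunit of the COPI coat, which returns cargo from the Golgi to the endoplasmic reticulum, and the edited A (chr1:174022479) lies in its coding sequence and, in another GENCODE transcript, in a UTR. The level was 28.7%, 31.6% and 30.3% in the liver replicates and 9.48%, 9.79% and 10.5% in the kidney replicates. The lowest liver value thus lay well above the highest kidney value, and the means were 30.2% ± 1.45 (SD, n = 3) and 9.92% ± 0.527 (SD, n = 3), from 4289 to 7269 reads per library. Levels were compared as log2((level + 0.01)/(1 − level + 0.01)), liver minus kidney, with limma and Benjamini-Hochberg adjustment. In a fit over genes, each given as the mean level of its sites read in all 6 libraries, Copa was higher in liver by 1.88 ± 0.28 (SE, adjusted p = 0.0347). It was the 1 gene past the threshold of 0.05 (0.671% of the genes tested), and no gene passed it in the direction of kidney. The unadjusted p was under 0.05 for 11 genes (7.38%), 9 higher in liver and 2 higher in kidney. The call for Copa, which has 1 site, rested on the spread that the fit assigned to genes of its level. In the fit over the 718 single sites the same values gave 1.88 ± 0.68 (SE, adjusted p = 0.655), and leaving out any one of the 6 libraries raised the gene's adjusted p to between 0.0926 and 0.373, while the difference stayed between 1.83 and 1.93. The call was also lost when sites above 5% alone were used (adjusted p = 0.0703), on untransformed levels (0.144) and without the trend in eBayes (0.316).

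The E861A libraries, which played no part in choosing the sites, gave the same order at Copa. There the site was at 32.7%, 28.6% and 30.7% in liver and at 10.6%, 7.25% and 9.20% in kidney. All 6 liver libraries of both genotypes thus exceeded all 6 kidney libraries. The E861A difference was 2.06 ± 0.38 (SE) on the log2 ratio scale, with an unadjusted p of 0.00194 and an adjusted p of 0.358 by limma over the 599 sites that could be tested in E861A. This E861A fit was added after the WT values had been seen. None of the 599 sites passed the threshold (0%), and 29 had an unadjusted p under 0.05 (4.84%), of which 26 were higher in liver.

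The recoding site of Flna, which encodes a filamin that crosslinks actin filaments, was at 39.4%, 48.9% and 35.4% in liver and 33.7%, 36.1% and 29.5% in kidney. The Flna values of the tissues overlapped, and the site-level difference was 0.49 ± 0.71 (SE, adjusted p = 0.794). In E861A it was at 33.9%, 33.1% and 28.2% in liver and 30.9%, 28.7% and 32.3% in kidney, again with overlap.

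Cog3, a subunit of the complex that tethers vesicles at the Golgi, was highly edited in both tissues. Its Ile to Val site was at 65.0%, 60.7% and 66.4% in liver and 65.0%, 55.9% and 61.2% in kidney, and the ranges overlapped. The site-level difference was 0.20 ± 0.71 (SE, limma adjusted p = 0.931). In E861A it was at 62.8%, 60.8% and 60.4% in liver and 57.0%, 57.0% and 58.3% in kidney, without overlap (0.23 ± 0.08 SE, limma unadjusted p = 0.0333, adjusted p = 0.747). The adjacent A, whose editing is synonymous, was read at 8.95%, 3.56% and 6.05% in liver and at 8.39%, 6.90% and 8.52% in kidney. All 6 libraries thus read the Cog3 recoding site as edited in most transcripts, at 55.9% or more.

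**Figure D1:**
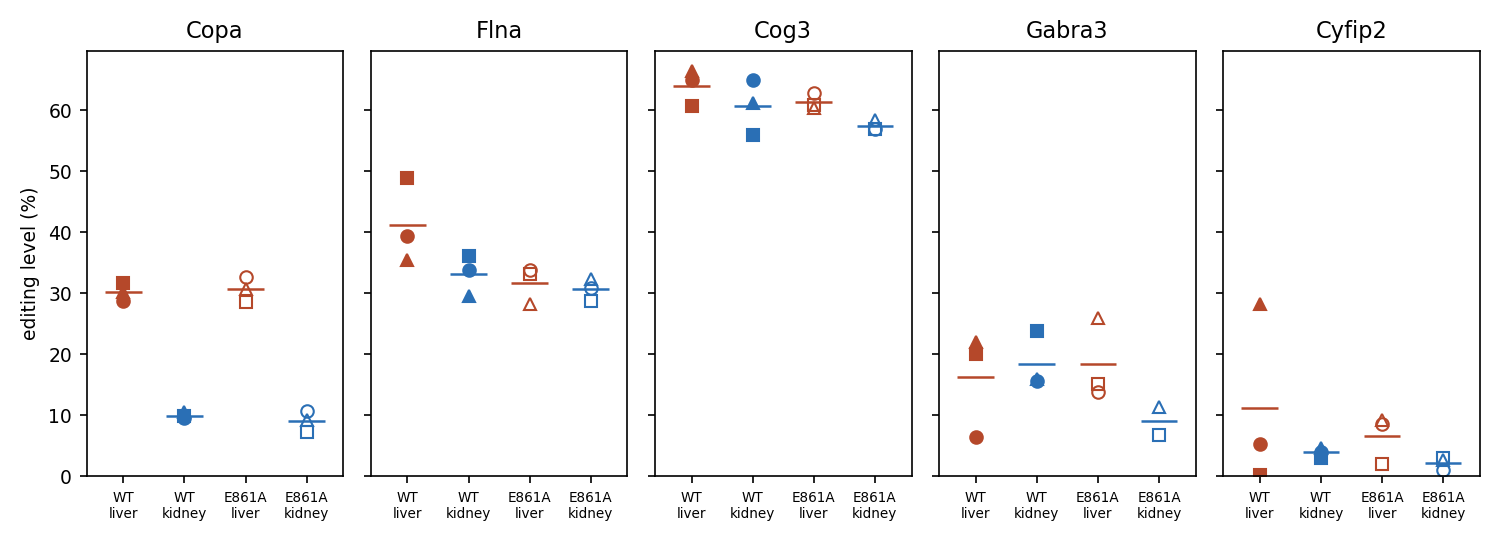
Editing level (%) at 5 recoding sites in each replicate of WT (filled symbols) and E861A (open symbols) liver (red) and kidney (blue); circles, squares and triangles are replicates 1, 2 and 3 and lines are means. At Copa the 6 liver libraries lie between 28.6% and 32.7% and the 6 kidney libraries between 7.25% and 10.6%, whereas at Cog3 all libraries lie between 55.9% and 66.4%.

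The other recoding sites were lower or less steady. In all, 15 recoding sites in 14 genes were compared, 2 of them in Blcap, and 12 were read in all 6 libraries. Every liver value exceeded every kidney value at 3 of these 12, Copa and Kcna1 among them, and at none was the reverse seen, whereas over all 603 sites read in every library the counts were 72 (11.9%) and 24 (3.98%). Of the 15 sites, Copa and uc008wxi.1 had an unadjusted p under 0.05. The site of uc008wxi.1, a transcript that the GENCODE annotation places in Gtf3c2, a subunit of the RNA polymerase III factor TFIIIC, was at 0.234% and 0.689% in the 2 liver libraries that read it and at 8.05%, 9.46% and 5.41% in kidney (adjusted p = 0.652).

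Among the receptors and channels, Gabra3 (GABA-A receptor alpha 3) was at 6.47%, 20.1% and 22.0% in liver and 15.7%, 23.8% and 15.9% in kidney, with overlap. Gria3 (AMPA receptor subunit) was at 0.291% and 38.8% in the 2 liver libraries that read it and at 3.26%, 9.11% and 20.6% in kidney. Kcna1 (the potassium channel Kv1.1) was at 0.184%, 0.163% and 36.3% in liver and at 0%, 0.0646% and 0% in kidney, so its higher liver mean rested on liver replicate 3. Liver replicate 3 was also the high one at Cyfip2, a component of the WAVE complex, with 5.24%, 0.122% and 28.2% in liver against 3.99%, 3.04% and 4.62% in kidney. At Kif1a, a neuronal kinesin, 1 kidney replicate was at 7.50% and the other 4 libraries that read it were between 0.219% and 0.405%. The Tyr to Cys site of Blcap was at 0.309%, 0.102% and 5.85% in liver and 12.8%, 0.473% and 4.14% in kidney, and its Lys to Arg site exceeded 1% only in liver replicate 2, at 3.24%. Ccni (cyclin I) lay between 0.640% and 2.49% and Tmem63b (an ion channel of the TMEM63 family) between 0.107% and 1.73% over both tissues. Gtf2a2, the small subunit of TFIIA, exceeded 1% only in liver replicate 1, at 2.32%. At the 7 recoding sites with a WT liver mean above 10%, the median of the means was 29.7% in WT and 30.7% in E861A liver. At the 160 3′ UTR sites above 10% in WT liver it was 23.3% in WT and 0.179% in E861A. In kidney the medians were 18.4% in WT and 11.8% in E861A at the 5 recoding sites above 10%, and 18.9% and 0.385% at the 79 3′ UTR sites.

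Averaged over all sites, the level was higher in every liver library than in any kidney library. The library means, over the 603 sites that all 6 libraries read, were 9.83%, 12.4% and 7.99% in liver and 7.13%, 7.50% and 5.66% in kidney. The group means were 10.1% ± 2.24 (SD, n = 3) in liver and 6.76% ± 0.974 (SD, n = 3) in kidney, a difference of 3.33 percentage points. It was 2.12 points without liver replicate 2, 6.81 points over sites above 5% and 1.57 points as a median over genes, where the exact permutation p was 0.4. The two-sided exact permutation test gave p = 0.1, the smallest value that 3 against 3 allows. In E861A the means over those of the sites that it read were 3.25% ± 0.665 (SD, n = 3) in liver and 1.64% ± 0.130 (SD, n = 3) in kidney. No single site passed the threshold in the limma fit over 718 sites (0%), and the smallest adjusted p was 0.214. An unadjusted p under 0.05 was found at 49 sites (6.82%), 26 higher in liver and 23 higher in kidney, and the F test of the study's methods after Benjamini-Hochberg adjustment called 1 site, that of Copa.

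Most of the sites, 530 of 718, lay in 3′ UTRs of 130 genes. Their mean level over the 455 read in every library was 10.5%, 12.8% and 7.63% in liver and 7.19%, 7.68% and 5.39% in kidney, and liver replicate 3 fell within the kidney range (exact permutation p = 0.2, adjusted over 7 annotation classes p = 0.467). The 23 sites in non-coding RNAs of 4 genes had the highest class mean, at 19.9%, 27.3% and 23.9% in liver and 15.8%, 14.3% and 15.4% in kidney. The recoding class, with 12 sites in the mean, was at 15.5%, 16.3% and 21.1% in liver and 13.0%, 12.4% and 12.0% in kidney. These 2 classes showed no overlap between tissues (exact permutation p = 0.1 for each, adjusted p = 0.35). Intronic sites (48 of the 60 were read in all 6 libraries) averaged 4.20% ± 0.819 (SD, n = 3) in liver and 3.47% ± 0.822 (SD, n = 3) in kidney, and intergenic sites 6.96% ± 2.26 (SD, n = 3) and 5.60% ± 1.26 (SD, n = 3). The intergenic difference turned from 1.36 to -0.93 percentage points without liver replicate 2. For the 6 sites in 5′ UTRs and the 2 of 4 synonymous sites read in all 6 libraries only the values are given, with class means of 4.87% and 3.65% in liver and 1.86% and 4.12% in kidney. When 1 library was left out, the 5′ UTR difference ranged from 0.46 to 4.45 percentage points. The synonymous difference then ranged from -0.70 to 0.85 points and so changed sign.

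**Figure D2:**
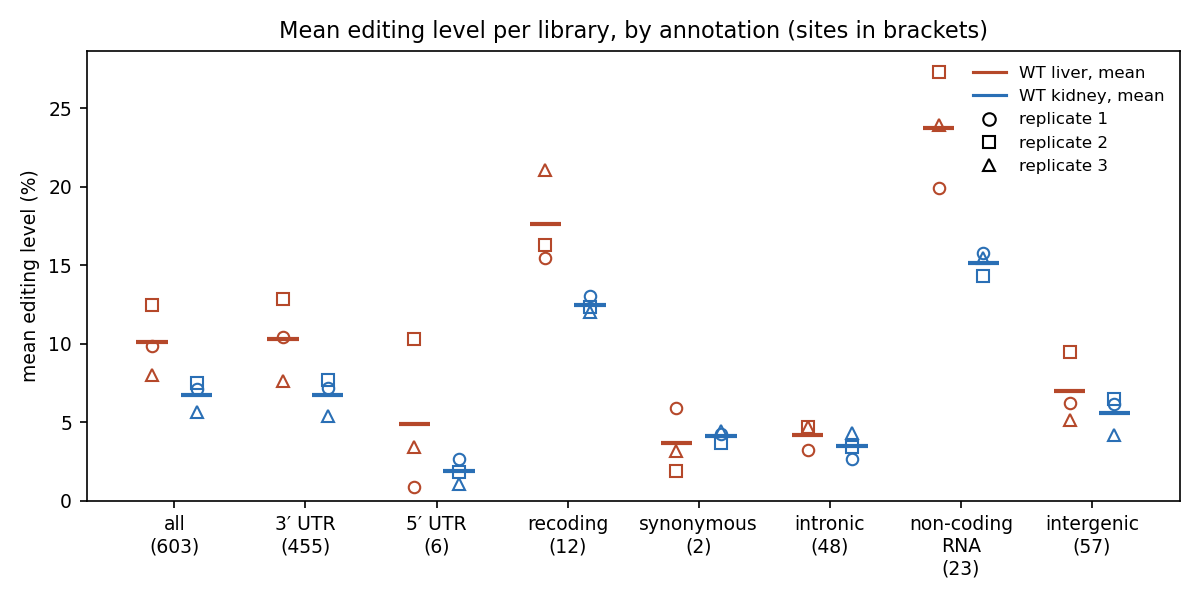
Mean editing level (%) of the sites read in all 6 WT libraries, for all sites and by annotation, with the number of sites in brackets. Symbols are the replicates and lines the means of liver (red) and kidney (blue); for all 603 sites the liver libraries lie between 7.99% and 12.4% and the kidney libraries between 5.66% and 7.50%.

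Of the 718 sites, 383 (53.3%) exceeded 1% in both tissues, 24.7% in liver only and 22.0% in kidney only. The 383 shared sites were 68.4% of the liver-edited sites (Wilson 95% interval 64.4% to 72.1%) and 70.8% of the kidney-edited sites (66.8% to 74.5%). Of the 109 sites above 20% in liver, 103 exceeded 1% in kidney, and of the 66 above 20% in kidney, 58 exceeded 1% in liver. Fewer were above 20% in both tissues, 52 sites, which are 47.7% of those above 20% in liver and 78.8% of those above 20% in kidney. Sites above 1% in one tissue only were mostly weak, with a median pooled level of 2.10% in liver and 2.08% in kidney. The intervals treat sites as independent, which sites of one amplified stretch are not. Just inside the 1% limit lay a site of Ivd at 1.01% and 0.0647% and one of Mll2 at 0.0993% and 1.01% in liver and kidney, and just outside it lay one of Slco2a1 at 0.991% and 0.438%.

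**Figure D3:**
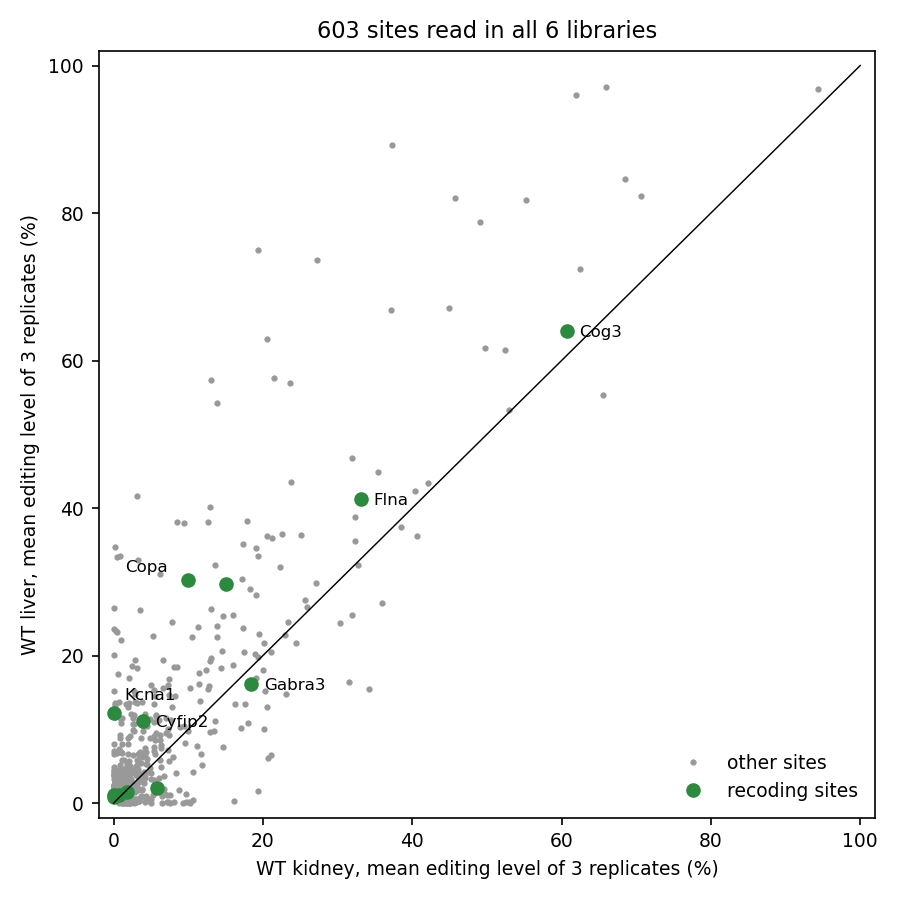
Mean editing level (%) of 3 replicates in WT liver against WT kidney at the 603 sites read in all 6 libraries; green points are recoding sites, grey points all others, and the line marks equal levels. Cog3 lies near the line at 64.0% and 60.7%, and Copa lies above it at 30.2% and 9.92%.

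The spread between replicates was wider in liver than in kidney. At sites with a liver mean between 5% and 20% the median SD between liver replicates was 9.34 percentage points, against a median counting error of 0.599 points, and in kidney these were 4.99 and 0.796 points. The highest and lowest replicate were more than 20 points apart at 124 of 603 sites in liver and at 41 in kidney. Among sites at which some liver replicate exceeded 10%, another liver replicate was at or below 1% at 132 of 246 (53.7%), and in kidney this held for 36 such sites (21.4%). Levels above 95% were found at 16, 10 and 3 of the 603 sites in liver replicates 1, 2 and 3, and at 0, 1 and 0 sites in kidney. The log ratios of 2 liver libraries correlated across the 603 sites at 0.46 to 0.58, those of 2 kidney libraries at 0.69 to 0.77, and those of a liver and a kidney library at 0.46 to 0.68. Neighbouring sites share reads, so these points are not independent. Only 118 of the 603 sites (19.6%) exceeded 1% in all 6 libraries, among them 91 in 3′ UTRs, 9 in non-coding RNAs and 5 recoding sites, those of Copa, Flna, Cog3 and Gabra3 among them. The part of this spread in the difference between the tissues was not tested.

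**Figure D4:**
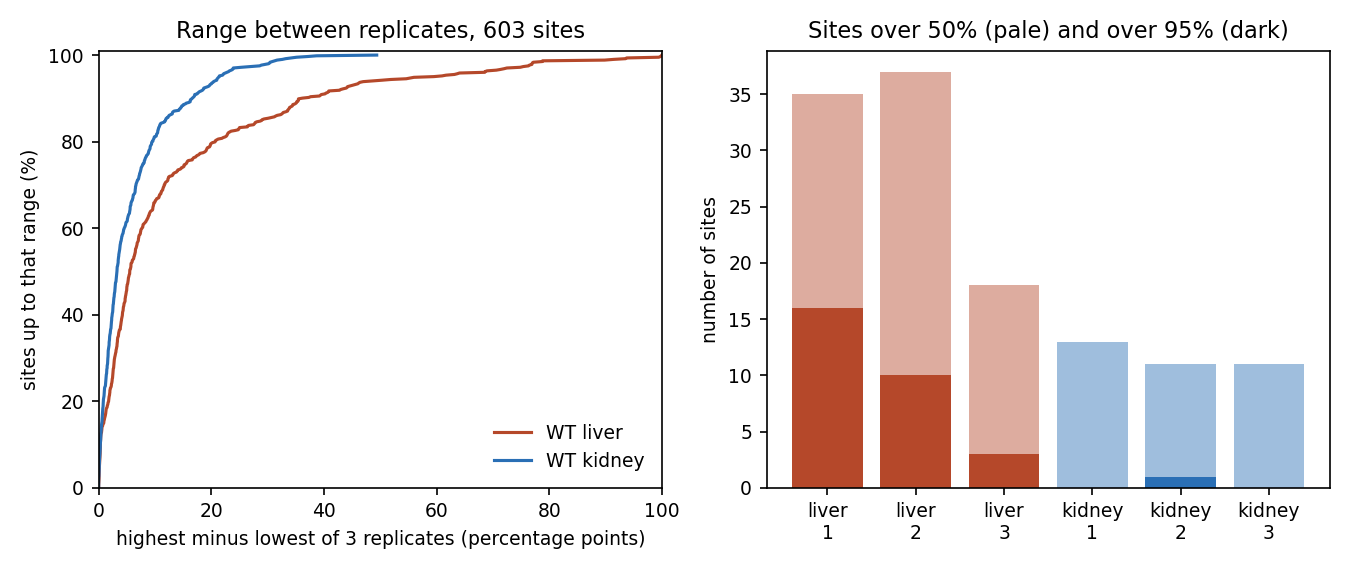
Left, share of the 603 sites (%) up to a given range between the highest and lowest of 3 replicates (percentage points) in WT liver (red) and WT kidney (blue). Right, number of these sites above 50% (pale bars) and above 95% (dark bars, drawn over the pale ones) in each library; liver replicates 1 and 2 have 35 and 37 sites above 50%, and kidney replicates 11 to 13.

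The single sites with the lowest p in each direction are given next. Rragd encodes a Rag GTPase that signals amino acid supply to mTORC1, and at chr4:33107392 it was at 52.3%, 59.5% and 31.4% in kidney and had no edited read in 415 and 418 reads of liver replicates 1 and 2. Liver replicate 3 had no reads there. The difference of -6.52 ± 0.92 (SE) had the smallest p of all sites (limma, unadjusted p = 0.000298, adjusted p = 0.214), and the same 21 bases with G at the site occur once elsewhere in the mm9 genome. In E861A the site was between 0% and 0.693% in the 6 libraries of both tissues. Another stretch of the same 3′ UTR went the other way in the libraries that read it. At chr4:33106395 the level was 100% and 57.0% in the 2 liver replicates that read it and 9.62%, 10.8% and 4.61% in kidney (limma, unadjusted p = 0.00794, adjusted p = 0.461), a site named after its values were seen.

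Slc35e2, a member of the nucleotide-sugar transporter family SLC35, was at 13.6%, 15.7% and 23.3% in liver and 1.88%, 0% and 0% in kidney at chr4:154995224 (difference 3.94 ± 0.81 SE, limma adjusted p = 0.374). At the 3′ UTR site of Rpa1 (chr11:75114517), whose product is the large subunit of the single-strand DNA binding protein RPA, the levels were 99.9%, 94.2% and 97.0% in liver and 67.2%, 53.6% and 77.2% in kidney (4.00 ± 0.99 SE, adjusted p = 0.438). Ecm2, which encodes an extracellular matrix protein, was at 99.9%, 100% and 88.2% in liver and 56.0%, 59.6% and 70.2% in kidney at chr13:49627526 (4.62 ± 1.19 SE, adjusted p = 0.461). At each of these 3 sites the WT tissues did not overlap, whereas the gene means of Slc35e2 and Ecm2, over 14 and 5 sites, did. In E861A the tissues overlapped at Rpa1, with 60.4%, 80.6% and 96.7% in liver and 16.5%, 59.7% and 63.1% in kidney. They also overlapped at Ecm2, with 90.1% and 22.0% in 2 liver libraries and 41.3%, 30.8% and 24.2% in kidney. Slc35e2 was at or below 0.517% in every E861A library of both tissues. The other sites of lowest p in the direction of kidney were a non-coding site of uc012aji.1 (chr17:6123086), inside a Tulp4 exon of GENCODE, at 9.35%, 13.5% and 25.6% against 0.338%, 0.312% and 0.376% in liver (-3.81 ± 0.78 SE, adjusted p = 0.374), and chr12:82658030, at 12.5%, 20.9% and 29.8% against 0% and 0.670% in 2 liver libraries (-4.35 ± 0.92 SE, adjusted p = 0.408). In E861A the uc012aji.1 site was at 18.7%, 10.5% and 0.106% in liver and 0%, 7.14% and 11.0% in kidney, so the WT order did not recur there. Its 21 bases occur at 52 places in the genome, and 3 more hold G at the site. The files call the chr12 position intergenic, and GENCODE places it in an exon of 6530401F13Rik.

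The 5 sites with the highest mean over both tissues were at 53.6% or more in every WT library. The position chr13:64391618, intergenic in the files and in the UTR of 1110018J18Rik in GENCODE, was between 92.8% and 98.0% in all 6 WT libraries. The Rpa1 and Ecm2 sites given above followed. At chr2:169896843, labelled uc008obr.1 and in the UTR of Tshz2, a zinc finger transcription factor, the levels were 100%, 100% and 53.8% in liver and 76.5%, 65.7% and 63.3% in kidney. Trove2, which encodes the RNA-binding autoantigen Ro60, was at 67.6%, 79.5% and 99.9% in liver and 66.2%, 69.1% and 76.5% in kidney at chr1:145602508. The 21 bases around the Trove2 site occur with G at 2 other places in the genome.

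The 4 strongest sites edited in liver only, 1 per gene, each rested on 1 replicate. They were in Fubp3 at 100% and 0.366% in the 2 liver libraries that read it, in uc009bto.2 at 0.206% and 99.8%, in Rragd (chr4:33106399) at 100% and 0.216%, and in Ecm2 (chr13:49627536) at 99.9%, 0.125% and 0.596%. All 4 were at or below 1.36% in every kidney replicate. Of the kidney-only sites the highest were taken from 4 annotation names, all intergenic positions counting as 1 name, and each was above 9% in every kidney replicate that read it. By pooled level the chr12:82658030 site given above, at 20.3%, stood before uc012aji.1, at 17.2%. Besides Rragd and uc012aji.1 the sites taken were chr12:55773344, in the UTR of Eapp, at 9.82%, 50.8% and 48.6%, and uc008jgg.1, in an exon of St6galnac6, at 9.68% and 68.6% in 2 libraries, with liver levels up to 0.218% and 0.382%. The 21 bases of these last 2 sites recur with G at 9 and 2 places in the genome, and those of the uc009bto.2 site at 2.

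The 4 genes with the most sites held dense clusters in their 3′ UTRs. Rpa1 and Ankrd28, a regulatory subunit of protein phosphatase 6, had 19 sites each. Rpa1 held 6 sites at which every liver value exceeded every kidney value and none with the reverse order, where over all 603 sites these orders held at 11.9% and 3.98%. Ankrd28 held 1 site with liver higher throughout, and Dclre1c and uc008obr.1 held none in either direction. The Rpa1 gene mean was 9.15%, 13.4% and 11.4% in liver and 9.07%, 6.20% and 8.59% in kidney (0.52 ± 0.42 SE, limma adjusted p = 0.675). Besides the first site, chr11:75114120 was at 28.3%, 28.6% and 19.4% in liver and 13.5%, 15.5% and 15.2% in kidney. The Ankrd28 mean was 14.6%, 15.5% and 10.5% in liver and 15.6%, 12.6% and 7.34% in kidney, and its highest site, chr14:32513849, was at 55.3%, 60.1% and 44.4% and at 67.8%, 57.2% and 33.7%. For Ankrd28, replicate 3 was the lowest of both tissues. Dclre1c, the nuclease Artemis of non-homologous end joining, had 17 sites and gene means of 5.30% ± 2.61 (SD, n = 3) in liver and 4.33% ± 0.731 (SD, n = 3) in kidney. The 17 sites of uc008obr.1 spanned 197 bases and averaged 26.5% ± 5.22 (SD, n = 3) and 22.4% ± 0.746 (SD, n = 3).

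**Figure D5:**
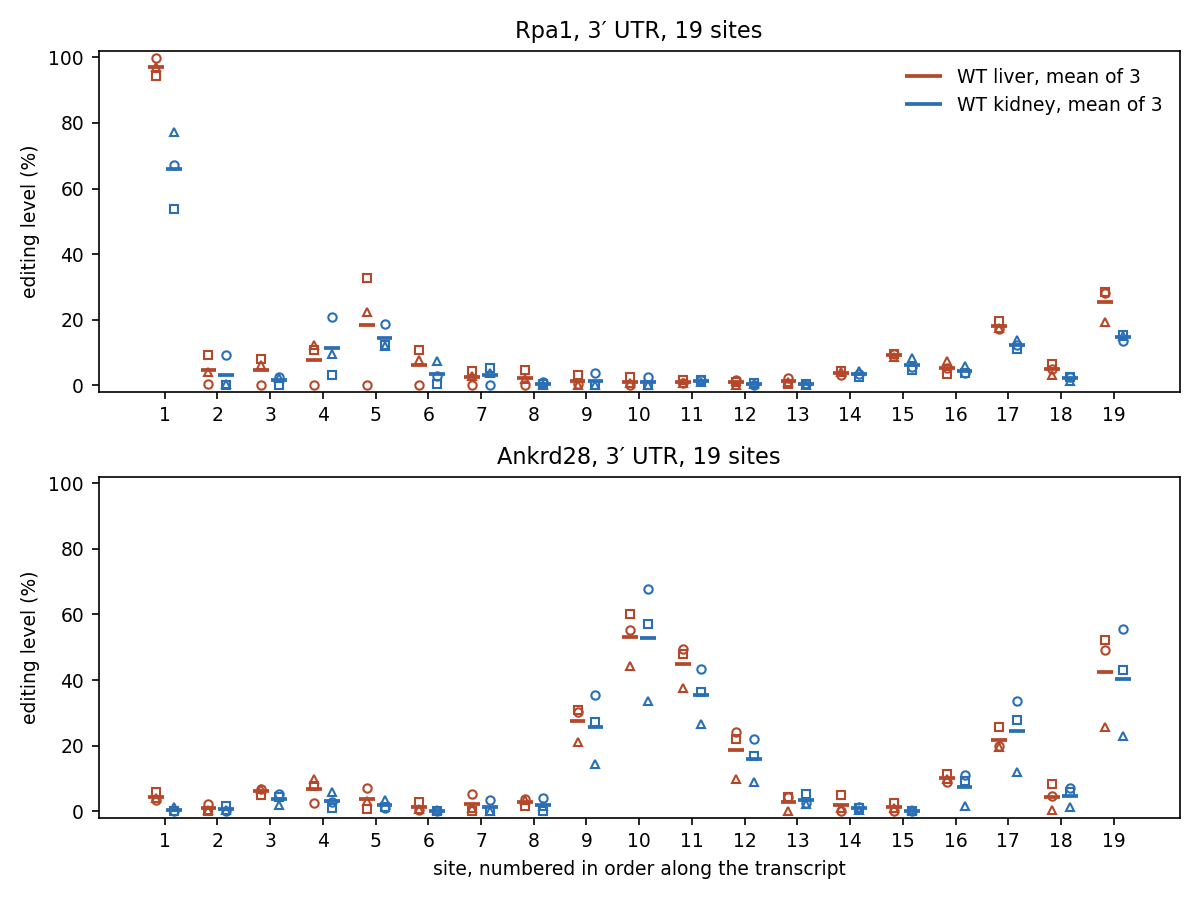
Editing level (%) in each WT replicate at the 19 sites of Rpa1 and the 19 of Ankrd28, numbered along the transcript; circles, squares and triangles are replicates 1, 2 and 3, liver is red, kidney blue, and short lines are means of 3. The first Rpa1 site is above 94% in every liver replicate and at 53.6% to 77.2% in kidney, and the tallest Ankrd28 sites overlap between tissues.

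By gene, liver was the higher tissue more often. By the untransformed mean level, 110 genes were higher in liver and 39 in kidney. The tissues did not overlap for 23 genes (15.4%) with liver higher and 4 (2.68%) with kidney higher. On the log2 ratio scale, which weighs 1 high replicate less, 100 genes were higher in liver and 49 in kidney. The median log2 difference was 0.41 over genes and 0.24 over sites. When the median log ratio of each library was subtracted, the median over genes became -0.07 and the share of genes with a positive difference went from 67.1% to 44.3%. The same step, which by construction moves the centre of each library to 0, left the median over sites at 0.18 and the share of positive sites at 56.4%, from 57.9%. Copa then kept a difference of 1.39 ± 0.47 (SE, limma adjusted p = 0.54).

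Genes were next grouped by function, with the higher tissue counted by the untransformed mean level and medians given on the log2 ratio scale. Widely expressed genes with recoding sites gave 8 tested genes, of which Copa passed the threshold, 6 were higher in liver and the median difference was 0.31 (all genes, 0.41). Membrane traffic and secretory genes, a list that also holds Copa and Cog3, gave 11 tested genes, 9 of them higher in liver, with a median of 1.05 and 1 call, Copa. In this list Exoc8, of the exocyst, was at 60.7%, 22.2% and 10.3% in liver and 0%, 18.7% and 0% in kidney (adjusted p = 0.516), and Golga2, the Golgi matrix protein GM130, was below 0.2% in liver and at 0.690%, 0.963% and 1.47% in kidney (adjusted p = 0.555). Slc35e1 was at 10.2%, 17.4% and 2.13% in liver and 2.79%, 2.94% and 0.843% in kidney (adjusted p = 0.567).

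None of the 14 tested genes for metabolic enzymes and carriers passed, 12 had a higher liver mean, and the median was 0.43. Cds2, which makes CDP-diacylglycerol, was steady at 23.6%, 24.6% and 21.1% in liver and 17.9%, 15.6% and 17.4% in kidney, without overlap (0.54 ± 0.27 SE, adjusted p = 0.567). Pfas, an enzyme of purine synthesis, was at 4.02%, 8.66% and 4.62% against 1.98%, 2.31% and 0.710%, also without overlap. Samd8 was at 24.5%, 19.4% and 12.1% against 12.8%, 9.26% and 3.98%, with overlap.

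DNA repair and genome maintenance genes (7 tested, 6 higher in liver, median 0.54) and RNA processing and ribosome genes (12 tested, 10 higher in liver, median 0.72) had no gene past the threshold. Mad2l1, of the spindle checkpoint, was at 35.9%, 39.3% and 7.02% in liver and 0.967%, 6.75% and 5.71% in kidney, from the 4 of its sites read in all 6 libraries (2.70 ± 0.93 SE, adjusted p = 0.416). Cdk7 and Mdc1 overlapped between tissues. Luc7l, Dusp11, Trove2 and Iws1 had the lowest p among the RNA processing genes, with adjusted p of 0.567 to 0.642. For innate immunity and blood cell genes, 4 of 6 tested genes had a higher liver mean and the median was 0.04. Mpeg1, the macrophage pore protein perforin-2, was at 4.51%, 7.36% and 3.51% in liver and 14.9%, 16.8% and 3.76% in kidney (adjusted p = 0.652), and Slfn5, Malt1 and Dtx3l overlapped between the tissues as well. No list was tested as a set.

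Outside these lists, the gene nearest to the threshold in the direction of kidney was Fam32a. Its single 3′ UTR site was at 13.5%, 7.21% and 9.22% in liver and 24.3%, 19.3% and 17.0% in kidney, without overlap (-1.15 ± 0.40 SE, limma adjusted p = 0.416), and in E861A at 7.42%, 7.87% and 4.15% in liver and 10.6%, 11.5% and 11.9% in kidney. Tln2 (talin 2) was at 35.3%, 6.48% and 4.75% in liver and below 1% in each kidney library, and Pkd2 (polycystin 2) at 7.06%, 4.57% and 3.39% against 0.718%, 0.962% and 0.616%, both with adjusted p = 0.416. Tln2, Pkd2 and Fam32a were named after their values were seen.

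The enzyme ADAR2 edits its own transcript, and Adarb1 was the 1 of 3 editing enzyme genes read in the comparison, with 7 intronic sites. Its gene mean was 11.3%, 7.01% and 9.70% in liver and 7.46%, 9.98% and 15.3% in kidney (-0.20 ± 0.46 SE, limma adjusted p = 0.926). The highest of these sites, chr10:76786805, was at 41.8%, 39.8% and 27.1% in liver and 32.1%, 40.8% and 49.1% in kidney, with wide overlap.

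Summed coverage was 6569793 to 8177676 per WT library, and the median coverage of the 718 sites lay between 1042 and 1532 reads. The identity of the tissues could not be checked by marker genes. The files hold no position in the 5 hepatocyte markers, and of the 5 kidney tubule markers 2 have positions that were not covered in either tissue. Of the blood cell markers, Il7r and Mpeg1 were covered in liver and these and Flt3 in kidney, and of the endothelial markers Calcrl and Nrp1 were covered in both. In whole tissue, a level averages over all cells that express the transcript, so a change in the cells that contribute it and a change in editing within a cell cannot be told apart.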

How the data were processed

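For each library the authors deposited read counts at 48715 positions (all reads and edited reads) and, from these, the level as a fraction. The authors mapped reads and counted G at known sites (STAR, SAMtools and mm9 stand in the submitters' processing notes, without roles). No normalization was applied. Levels were recomputed from the counts. limma 3.58.1 (lmFit, eBayes with trend) in R 4.3.3 compared sites, and genes on the mean level of their sites read over 100 times in every library, with a threshold of 0.05 after Benjamini-Hochberg adjustment, and was tested on simulated data. Library means were compared with two-sided exact permutation tests. The protocol calls replicates independent but leaves liver out of its list of tissues, whereas the labels include it. PCR reads without molecular identifiers are not independent molecules, so intervals cover counting error only. Sequences came from NCBIM37 (mm9), with exact 21-base copies counted on both strands, and gene models from GENCODE vM1. Python 3.11.15, pandas 2.3.3, numpy 2.4.6, scipy 1.17.1 and matplotlib 3.10.9 were used.

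Named were sites past the threshold or, with fewer than 3 in a direction, the 3 of lowest p, all recoding sites, the 4 genes with most sites, the 5 highest sites, the 4 strongest sites edited in 1 tissue only (1 per gene name, intergenic positions counting as 1 name), and up to 4 genes per list. The members, lists and tests were chosen with earlier results of these data known. Alternatives were other coverage minimums, edited limits, offsets, scales, weights and fits, the replicate block, the study's criterion and leaving out each library. The other tissues were not analysed here, and some genes, though part of the fits and counts, are not reported here by name.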

Additional observations from a re-analysis of the deposited data

How the results depend on the processing

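The absence of calls at single sites (0 higher in liver, 0 in kidney) held under all alternatives tried except a fit over 12 libraries that included E861A (2 higher in liver, Slc35e2 and Homer2, and 2 in kidney, Rragd and Slfn5, where the 21 bases of the Slfn5 site occur at 45952 places in the genome and with G at 234, and those of Slc35e2 at 7 and 0), the study's criterion of F test p under 0.1 with at least 5 points between means (31 and 13) and the F test after Benjamini-Hochberg adjustment (1, Copa). Leaving out 1 library, the remaining exception, gave 0 to 6 sites higher in liver and 0 to 1 in kidney. The 6 and 1, without liver replicate 3, included 2 sites of uc008obr.1 and 1 each of Ecm2 and uc012aji.1, and Rragd. The gene call for Copa was lost (0 genes) with an edited limit of 0.05 (difference 1.88, adjusted p = 0.0703), untransformed levels (0.203 as a fraction, 0.144), eBayes without trend (1.88, 0.316), library medians subtracted (1.39, 0.54) and each library left out (0 genes to 0 genes, difference 1.83 to 1.93). The study's criterion called 7 genes higher in liver and 1 in kidney. Replicate numbers were not taken to pair the samples, since the correlations of deviations were 0.02, 0.04 and 0.09. In 2 of 3 cases a liver library correlated best with the kidney library of its number, and the sources do not say whether these came from the same mice. With the replicate block 0 genes passed (Copa 1.88, adjusted p = 0.0696) and the mean difference was 3.33 points (exact sign-flip p = 0.25). The mean level difference was 6.81 points at an edited limit of 0.05 and 1.57 as a median over genes, and 2.12 to 4.30 without 1 library. At that limit class differences were 6.82 (3′ UTR), 7.80 (5′ UTR), 7.49 (recoding), 4.38 (intergenic), 1.90 (intronic), 14.1 (non-coding RNA) and -1.75 points (synonymous). Without 1 library they ranged from 2.43 to 4.68, 0.46 to 4.45, 4.08 to 6.96, -0.93 to 2.46, 0.32 to 1.02 and 7.04 to 10.9 points, and from -0.70 to 0.85 for synonymous sites, which turned positive without liver replicate 1, 2 or 3 (0.85, 0.66 and 0.25). Shared sites were 60.2% of liver-edited and 77.3% of kidney-edited sites at the limit of 0.05, 75.4% and 79.8% with the limit over both tissues, and 75.1% of kidney-edited sites at 500 reads. Without 1 library they were 63.4% to 71.4% and 66.0% to 72.5%. The causes were not tested.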
